A study of Mus musculus with 7 samples.

Results

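Promoter peaks called with HA-GATA2 but not with HA-9aa-Ins were collected from the anti-HA CUT&Tag peak lists of hi-77-/- cells. They had a GATA motif within 100 bp of the summit, whether or not it lay inside the called peak. Of 6254 peaks in the GATA2 list, 359 met the rule. A peak was a member when it shared no base with a peak of the 9aa-Ins list, when its summit lay from 2 kb before to 100 bp after the start of a protein-coding transcript, and when WGATAR (W is A or T, R is A or G) stood on either strand within 100 bp of the summit. The members were thus selected on measured peaks and on sequence, and the absence of overlap, the promoter position and the motif itself are not findings about them. They lay within reach of 388 protein-coding genes, and 39 members had the starts of more than 1 gene in reach.

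The hi-77-/- cells derive from progenitors of mouse fetal liver that were immortalized by HoxB8 and grown with β-estradiol, and they lack both copies of the Gata2 -77 enhancer, a genotype shared by all samples. A GFP retrovirus brought in either HA-GATA2 or HA-9aa-Ins, in which the spacer between the zinc fingers of GATA2 carries inserted amino acids. The sorted GFP+ cells of each condition formed 1 pool that was divided into 2 anti-HA replicates, and each deposited list merges those replicates, so a peak has 1 value, no spread between replicates could be computed, and no test between samples was possible. The series has 7 libraries, and those of the anti-GATA2 antibody were not used here. None of the 7 is labelled as a control antibody or as cells with an empty virus, so reads that do not depend on the HA tag could not be set apart. Expression came from a virus, the cells retain a reduced level of their own GATA2, which the HA antibody does not see, and peak lists hold no marker levels against which the labelled cell type could be checked.

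GATA2 is a zinc finger protein needed by hematopoietic stem and progenitor cells and by mast cells. It recognizes WGATAR, often beside an E-box (CANNTG) bound by TAL1 in a complex with LMO2 and LDB1, and GATA1 takes over many of its sites as erythroid cells and megakaryocytes mature. Most of the GATA factor sites that have been studied lie far from promoters, in introns and intergenic enhancers. CUT&Tag places a transposase at an antibody, and the transposed fragments pile up around the bound protein.

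The windows of 5 members are printed to show what the rule picked out, from the tallest peaks to modest peaks at well known hematopoietic genes. Each is the 201 bp of mm10 (GRCm38) centered on the summit, read 5′ to 3′ on the plus strand, with every WGATAR or its reverse complement in capitals.
Cpa3, chr3:20244047-20244247, plus strand: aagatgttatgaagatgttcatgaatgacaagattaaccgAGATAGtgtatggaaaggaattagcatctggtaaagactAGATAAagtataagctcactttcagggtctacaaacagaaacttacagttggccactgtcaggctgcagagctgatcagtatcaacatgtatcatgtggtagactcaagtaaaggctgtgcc
Flt3l, chr7:45137246-45137446, plus strand: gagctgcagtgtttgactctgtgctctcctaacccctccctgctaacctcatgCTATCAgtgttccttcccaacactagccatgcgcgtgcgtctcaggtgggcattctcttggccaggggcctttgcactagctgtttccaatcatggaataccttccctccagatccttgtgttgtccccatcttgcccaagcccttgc
Tal1, chr4:115056672-115056872, plus strand: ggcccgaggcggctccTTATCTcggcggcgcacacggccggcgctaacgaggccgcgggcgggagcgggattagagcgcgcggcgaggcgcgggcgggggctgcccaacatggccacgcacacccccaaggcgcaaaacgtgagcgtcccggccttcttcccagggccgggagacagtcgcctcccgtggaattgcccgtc
Ebf1, chr11:44617149-44617349, plus strand: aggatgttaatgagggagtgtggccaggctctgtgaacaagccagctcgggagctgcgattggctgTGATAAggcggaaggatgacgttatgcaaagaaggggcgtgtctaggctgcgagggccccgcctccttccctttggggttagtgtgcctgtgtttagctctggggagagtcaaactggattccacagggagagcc
Hdc, chr2:126618786-126618986, plus strand: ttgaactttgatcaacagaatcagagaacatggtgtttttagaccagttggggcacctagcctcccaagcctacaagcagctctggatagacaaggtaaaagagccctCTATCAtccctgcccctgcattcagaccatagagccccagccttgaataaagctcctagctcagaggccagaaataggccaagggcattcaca

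Cpa3 encodes the carboxypeptidase of mast cell granules, and its peak lay 1966 bp before the start, outside transcripts. A pair of motifs stood in that window, the nearer of them 18.5 bp from the summit. Flt3l encodes the ligand of the FLT3 receptor on early progenitors, and its motif lay 44.5 bp from the summit. TAL1 is itself the E-box partner of GATA2, and its motif lay 81.5 bp from a summit of 29 reads that stood 666 bp before a downstream start, inside an intron of longer Tal1 transcripts. Ebf1 encodes a master regulator of B cell development, and its motif stood 31.5 bp from a summit 68 bp before the start. Hdc encodes histidine decarboxylase, which makes histamine, and its motif stood 10.5 bp from a summit 208 bp before the start.

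The height of a member was the number of reads over its summit (pileup), recovered from the deposited fold enrichment, which is the pileup plus 1 over the background plus 1. The lowest member had 9 reads, the median was 15 (quartiles 12 and 20) and the highest had 51. In fold enrichment these values were 6.83, 10.9 and 35.5. The 57 members under 12 reads (15.9%) were close to the floor of the list, which was also 9 reads. The background of the GATA2 list was 0.464 reads and that of the 9aa-Ins list 0.455 reads. The smallest pileup called for 9aa-Ins was 9 reads as well.

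The tallest members marked genes of varied function. Flt3l stood first with 51 reads (fold enrichment 35.5), and the window of the annotated gene Gm45713 held the same summit. Cpa3 followed with 46 reads (32.1). Pgls, an enzyme of the pentose phosphate pathway, had 42 reads, and Cd47, a surface protein that inhibits phagocytosis, had 41 reads. Ppp1r15a, a stress-induced regulator of eIF2 dephosphorylation, also had 41 reads, over a coding exon, and a Plekha4 start was in reach of the same summit. These peaks stood apart from the bulk, whose upper quartile was 20 reads.

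The ubiquitin ligase gene March2 and the Ras association gene Rassf4 each had 40 reads. Cep55, which acts in abscission at the end of cell division, had 39 reads. Tmcc2 and the lysophosphatidic acid receptor gene Lpar5 had 38 reads each. Depdc1b and Gse1 had 35 reads. A summit shared by Npc2, a lysosomal cholesterol carrier, and Isca2, an iron-sulfur cluster factor, had 33 reads. The autophagy protease gene Atg4d and Havcr2, which encodes TIM-3, had 33 reads as well. The list of the 20 highest closed with C2cd5 at 32 reads and Bahcc1, Cbwd1, Micall2 and Spty2d1 at 31 reads. AGATAA was the nearest motif at Cpa3, March2, Tmcc2, Lpar5, Depdc1b, Npc2, Atg4d, Bahcc1, Micall2 and Spty2d1. Their places ranged from a coding exon (Ppp1r15a) and introns (March2, Tmcc2, Gse1, C2cd5, Micall2) to sequence outside protein-coding transcripts, before the start.

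**Figure D1:**
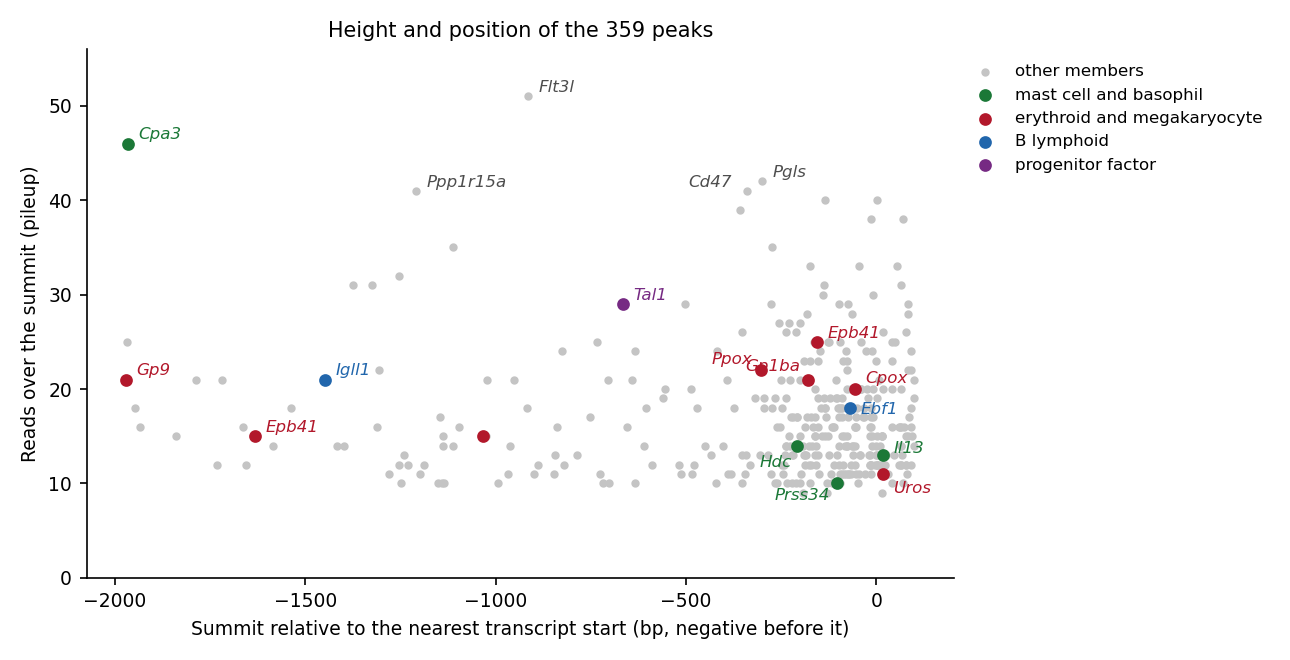
Reads over the summit (vertical) against the position of the summit relative to the nearest transcript start in reach (horizontal, bp) for all 359 members, each point 1 peak. Members at mast cell and basophil, erythroid and megakaryocyte, B lymphoid and progenitor factor genes are colored, not all of them with a name, and Cpa3 with 46 reads at 1966 bp before the start stands far from the bulk, which lies close to the start between 9 and 20 reads.

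Members at genes of blood lineages were described with gene lists. Of all 21924 protein-coding gene symbols, 388 had a member in their promoter window (1.77%), 2311 had a GATA2-only peak without the motif (10.5%) and 805 had a peak shared with 9aa-Ins (3.67%). Mast cell, basophil and eosinophil genes had a member at 4 of 20 promoters (20%, 95% Wilson interval 8.07 to 41.6), namely Hdc, Cpa3, Il13 and Prss34. Only Il13 of that list also had a GATA2-only peak without the motif, and 0 of 20 had a shared peak. Erythroid and megakaryocyte genes had a member at 7 of 33 promoters (21.2%, interval 10.7 to 37.8), against 6 with a GATA2-only peak lacking the motif and 1 with a shared peak. The lists were drawn up with results of these data known and the intervals cover counting error only, so the counts are a description and were not tested.

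Among the mast cell and basophil genes, heights spread widely. The Cpa3 peak had 46 reads, the Hdc peak 14, the Il13 peak 13 and the Prss34 peak 10, so that apart from Cpa3 the peaks of this group were below the median member of 15 reads. Il13 encodes a type 2 cytokine, and its motif lay 95.5 bp from the summit, close to the limit of the rule. That motif stood outside the called peak, which ended at 53634752 on chromosome 11. Prss34 encodes a basophil protease, and its motif lay 73.5 bp from the summit, toward the start. Slc18a2, which loads histamine into granules, was on the list of solute carriers and not on that of mast cells, and was named here after its values were seen. Its peak had 16 reads, 117 bp before the start, with TGATAG 13.5 bp from the summit.

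Members at erythroid and megakaryocyte genes are printed as the 40 bases around the nearest WGATAR, on the strand that reads WGATAR, since these genes are known for control by GATA factors.
Uros, chr7:133708942-133708981, plus strand: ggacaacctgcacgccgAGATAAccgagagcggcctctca
Cpox, chr16:58670195-58670234, minus strand: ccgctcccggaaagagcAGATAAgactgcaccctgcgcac
Ppox, chr1:171281031-171281070, minus strand: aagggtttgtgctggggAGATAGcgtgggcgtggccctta
Gp1ba, chr11:70639001-70639040, plus strand: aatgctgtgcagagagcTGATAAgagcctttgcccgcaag
Gp9, chr6:87776046-87776085, plus strand: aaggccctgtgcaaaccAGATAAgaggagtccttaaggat
Epb41 nearer site, chr4:132075475-132075514, plus strand: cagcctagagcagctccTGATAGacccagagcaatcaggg
Epb41 farther site, chr4:132076914-132076953, plus strand: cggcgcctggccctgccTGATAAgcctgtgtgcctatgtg

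Uros, Cpox and Ppox encode enzymes of heme synthesis. In its expression data the study did not find GATA1-regulated genes, such as those for heme synthesis or the cytoskeleton, to be regulated by GATA2. The Ppox peak had 22 reads and 3 motifs, with the nearest 11.5 bp from the summit. The Cpox peak had 20 reads and its motif stood 22.5 bp from the summit, 55 bp before the start. The Uros peak had 11 reads, and the start of Bccip lay within reach of it.

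Gp1ba and Gp9 encode subunits of the platelet receptor for von Willebrand factor. Both had 21 reads, the Gp1ba summit 180 bp and the Gp9 summit 1971 bp before the start. Epb41, which encodes the red cell membrane skeleton protein 4.1, held 2 members, with 25 reads 156 bp before a start and 15 reads 1632 bp before it. TGATAA in the farther Epb41 peak stood 9.5 bp from the summit.

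B lymphoid genes had a member at 2 of 20 promoters (10%, interval 2.79 to 30.1). Igll1, which encodes a surrogate light chain of the pre-B cell receptor, had 21 reads at 1449 bp before the start, and Ebf1 had 18 reads. Both are also among the 25 genes the study describes as repressed by GATA2, of which they were the 2 with a member (8.0%, interval 2.22 to 25), while 0 of the 25 had a GATA2-only peak without the motif or a shared peak at the promoter. Of 9 genes the study describes as activated, only Hdc had a member (11.1%, interval 1.99 to 43.5), 2 had a GATA2-only peak without the motif (Gata1 and Kit, 22.2%) and 0 had a shared peak at the promoter. Those lists come from the study of these same cells and are not independent of the data.
Il13, chr11:53634761-53634800, minus strand: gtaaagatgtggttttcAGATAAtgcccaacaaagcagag
Prss34, chr17:25298346-25298385, plus strand: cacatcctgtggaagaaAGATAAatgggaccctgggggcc
Igll1, chr16:16865386-16865425, minus strand: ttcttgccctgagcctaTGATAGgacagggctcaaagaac

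GATA2 partners and progenitor transcription factors had a member at 1 of 32 promoters (Tal1, 29 reads; 3.12%, interval 0.554 to 15.7), an interval that overlaps those of the mast cell, erythroid and B lymphoid lists. Of these 32, 13 (40.6%) had a GATA2-only peak without the motif, among them Runx1, Gata1, Gfi1b, Lyl1 and Myb, and 6 of 32 had a shared peak. Chromatin regulators had 1 member in 55 genes (Kdm6a, 20 reads) and 16 with a GATA2-only peak without the motif. ETS factor genes had 1 member in 15 (Elk3, 10 reads) and 7 with a GATA2-only peak without the motif. Apoptosis genes had 2 of 14, Bbc3 with 11 reads and Trp53 with 13 reads at a summit nearer to Wrap53. Cytokine receptor and JAK-STAT genes (37), cell cycle genes (39), innate immune sensing genes (25) and sphingosine phosphate and cannabinoid receptors (7) had 0 members. Of those lists, the cytokine receptor and JAK-STAT genes had 10 promoters with a GATA2-only peak lacking the motif, Kit and Epor among them, and the cell cycle genes had 8.

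Larger families were read against the same background of 1.77%. Genes with a Zfp symbol had 14 of 394 (3.55%, interval 2.13 to 5.88), solute carriers 7 of 371 (1.89%), cytosolic ribosomal proteins 3 of 101 (2.97%) and respiratory chain and ATP synthase genes 4 of 98 (4.08%). Histone genes had 2 of 67 (2.99%), whereas 47 of 67 had a shared peak. Translation initiation factors had 0 of 55, while 12 of the 55 had a GATA2-only peak lacking the motif and 10 had a shared peak. Besides Epb41, 9 genes had 2 members: Ap5s1, Clic1, Fermt3, Hgf, Paqr7, Sirt3, Slc16a13, Zbtb7a and Zfp207. The Zbtb7a peaks, at a repressor gene of the erythroid lineage, had 29 and 18 reads, both over AGATAA in an intron.

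Members were compared with GATA2-only promoter peaks that lacked WGATAR, within the GATA2 list. The rule set no height beyond the peak threshold, but it left out peaks shared with 9aa-Ins, which were taller where they held the motif. GATA2-only peaks were 82.2% of promoter peaks with the motif and 78.0% of all promoter peaks. How much of the height difference follows from this selection was not tested. The median was 15 reads in members and 14 reads (quartiles 12 and 17) in the 2101 peaks lacking the motif. A summit of at least 20 reads was found in 99 of 359 members (27.6%, interval 23.2 to 32.4) and in 301 of 2101 peaks lacking the motif (14.3%, 12.9 to 15.9). The difference was 13.3 percentage points (Newcombe 95% interval 8.61 to 18.3). Members were also wider, with a median of 352 bp against 312 bp. Peaks are not replicates of the condition, and the intervals cover counting error only, with no spread between replicates.

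Height was also divided into bins. Among GATA2-only promoter peaks, WGATAR stood in 11.4% of 499 peaks of 9 to 11 reads, in 12.3% of 816 peaks of 12 to 14 reads and in 13.8% of 745 peaks of 15 to 19 reads. It stood in 22.1% (77 of 348) at 20 to 29 reads and in 42.3% (22 of 52, interval 29.9 to 55.8) at 30 to 51 reads. Mean GC content was 63.7% in the lowest bin and 62.7% and 58.9% in the 2 highest. The height difference was 11.9 points (interval 5.6 to 18.6) below 60% GC and 13.9 points (interval 6.79 to 22.3) at 60% GC and above. By narrower bands, the share with at least 20 reads was 27.4% in members against 13.4% in peaks lacking the motif below 50% GC, 27.4% against 15.8% at 50 to 60% GC, 27.4% against 15.7% at 60 to 70% GC and 30% against 10.6% at 70% GC and above.

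Members were near in height to motif-holding GATA2-only peaks outside promoters, of which 30.5% of 1405 had at least 20 reads (difference -2.89 points, interval -7.9 to 2.5). The 78 promoter peaks shared with 9aa-Ins that held the motif were taller, with a median of 26 reads and 61 of 78 (78.2%) at 20 reads or more (difference -50.6 points, interval -59.5 to -39.2). Their median width was 705 bp. Taller peaks are more easily called in either list, and how much of this difference follows from the selection on overlap was not tested.

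**Figure D2:**
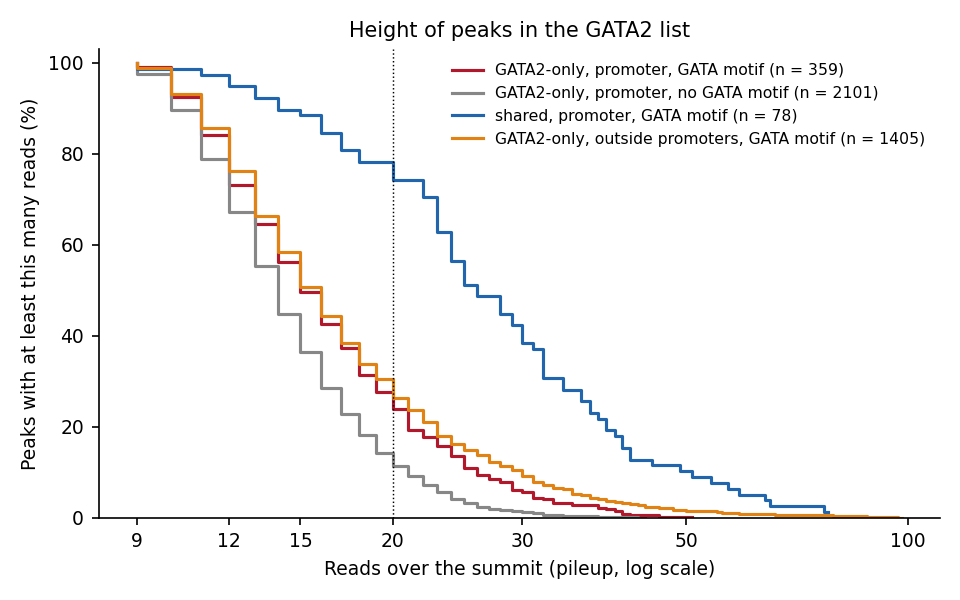
Share of peaks (vertical, %) that have at least the number of reads over the summit given on the horizontal axis (log scale) in 4 classes of the GATA2 list. At 20 reads (dotted line) 27.6% of members remain, against 14.3% of GATA2-only promoter peaks lacking the motif, 30.5% of GATA2-only motif peaks outside promoters and 78.2% of shared promoter peaks with the motif.

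The motif was a minority feature of promoter peaks. Of 3155 promoter peaks, 2460 had no overlap with a 9aa-Ins peak (78.0%, beside 84.7% of all 6254 peaks), and of these 359 held WGATAR (14.6%, interval 13.3 to 16). Of the 437 promoter peaks with the motif, the 359 members were 82.2%. The motif stood in 11.2% of 695 shared promoter peaks (78) and in 49.5% of 2836 GATA2-only peaks outside promoters. Flanking windows, 201 bp long and 2 kb away from the GATA2-only promoter summits on either side, held it in 29.4% of 4920 cases, and windows centered on the starts of all protein-coding genes in 16.2% of 21938 cases. Taken over all windows, the share under these summits was therefore below both backgrounds.

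GC content changed that order. WGATAR is rich in A and T and promoter windows are rich in G and C. Below 50% GC the motif was under 48.1% of 129 GATA2-only promoter summits (interval 39.6 to 56.6), against 35.2% of gene starts and 33.8% of flanking windows. At 50 to 60% GC the shares were 25% (21.8 to 28.4), 17.2% and 18.6%. At 60 to 70% GC they were 10.2% (8.54 to 12.1), 6.74% and 4.83%, and at 70% GC and above 3.54% (2.3 to 5.4), 2.04% and 2.44%. In every band the share under the summits was the highest of the 3, although in the uppermost bands the flanking windows were few (145 and 41) and their intervals overlapped those of the peaks, as did that of the gene starts at 70% GC and above. The motif was used by the rule, so these shares are given as a description.

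Among GATA2-only promoter peaks, the share that held the motif was larger far from the start, although most members lay near it. WGATAR stood in 35.3% of 119 GATA2-only promoter peaks with a summit more than 1000 bp before the start (interval 27.3 to 44.2), in 26.8% of 123 at 501 to 1000 bp, in 14.8% of 452 at 201 to 500 bp, in 13.0% of 1172 within 200 bp before the start and in 10.9% of 594 within 100 bp after it (8.68 to 13.7). Mean GC content of these peaks was 56.3% in the farthest bin and 66% in the last. A summit within 200 bp of a start was found in 60.4% of members (217 of 359) and in 73.9% of peaks lacking the motif, a difference of -13.4 points (interval -18.9 to -8.14), or -8.23 points (-13.8 to -3.0) with promoters reaching only 1 kb before the start. The part of base composition in this gradient was not tested.

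**Figure D3:**
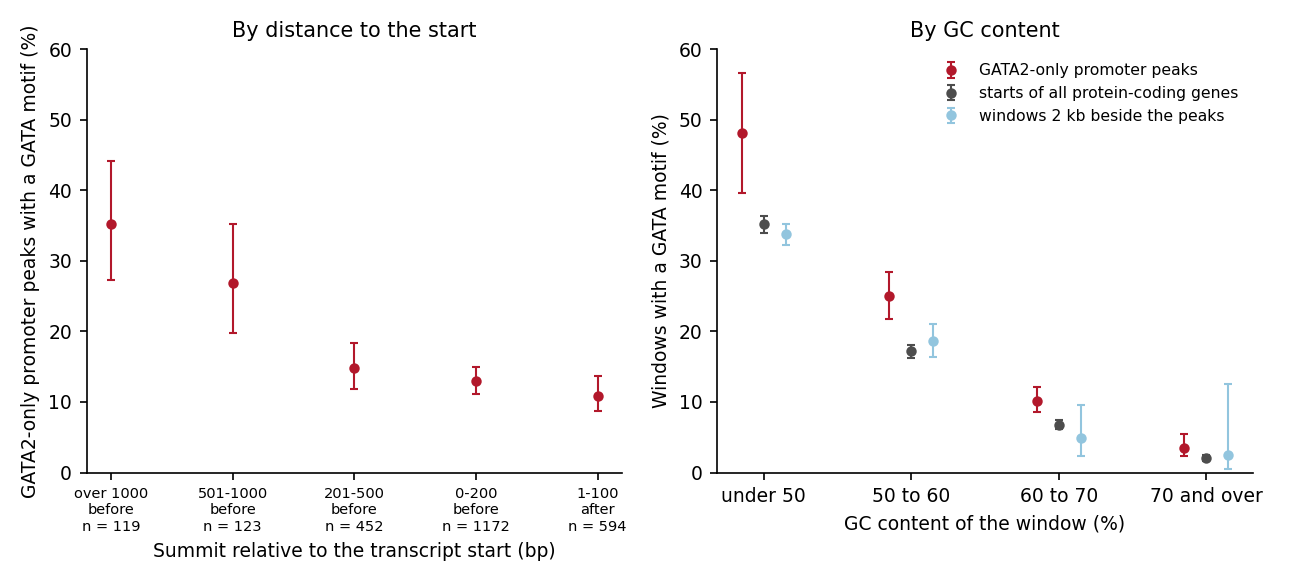
Share of GATA2-only promoter peaks with a GATA motif within 100 bp of the summit (vertical, %), by distance of the summit to the transcript start (left) and by GC content of the window (right), where starts of all protein-coding genes and windows 2 kb beside the peaks are added. Bars are 95% Wilson intervals, and the share was 35.3% in the farthest bin and 10.9% past the start. It was above both backgrounds in each GC band. Its intervals overlapped those of the flanking windows from 60% GC and those of the gene starts from 70% GC.

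Base composition was compared next. Mean GC content of the window was 57.6% in members, 57.3% in those shared peaks, 64.8% in GATA2-only promoter peaks lacking the motif and 50.1% in motif peaks outside promoters. The rule asked for a motif rich in A and T, so the contrast with peaks lacking it is in part set by the rule. Windows that met a CpG island criterion (GC at least 50% and observed over expected CpG at least 0.6) were 47.6% of members (171), 50% of shared promoter peaks with the motif (difference -2.37 points, interval -14.3 to 9.63), 78.4% of peaks lacking the motif (difference -30.8 points, interval -36.2 to -25.3) and 2.85% of motif peaks outside promoters. Of the 359 nearest motifs, 197 lay outside protein-coding transcripts, 85 in an untranslated part of an exon, 63 in an intron and 14 in a coding exon. Repeats filled over 50% of the window in 4 members.

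Motifs were spread over the window. The nearest WGATAR of a member lay at a median of 46.5 bp from the summit (quartiles 23 and 73.5). It lay within 25 bp in 97 of 359 members (27.0%, interval 22.7 to 31.8), in 34.7% of the motif peaks outside promoters (32.2 to 37.2, difference -7.64 points, interval -12.7 to -2.24). Of flanking windows that held a motif, the share was 35.3% of 204 for members (29.1 to 42.1) and 29.9% of 865 for the peaks outside promoters (27.0 to 33.1). Counting every motif, 101 of 416 in members (24.3%, interval 20.4 to 28.6) and 527 of 2084 outside promoters (25.3%) were within 25 bp, against 31.2% of 247 in the flanking windows of members (25.7 to 37.2), where an even spread over the window gives 25.5%. In members, no concentration of WGATAR under the point of highest pileup was detectable by either count. Outside promoters, the share by the nearest motif was above that of the flanking windows, with intervals that overlapped, and the share of every motif was close to an even spread. At least 20 reads were found in 28.9% of the 97 members with a motif within 25 bp (interval 20.8 to 38.6) and in 27.1% of the other 262 (22.1 to 32.8).

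**Figure D4:**
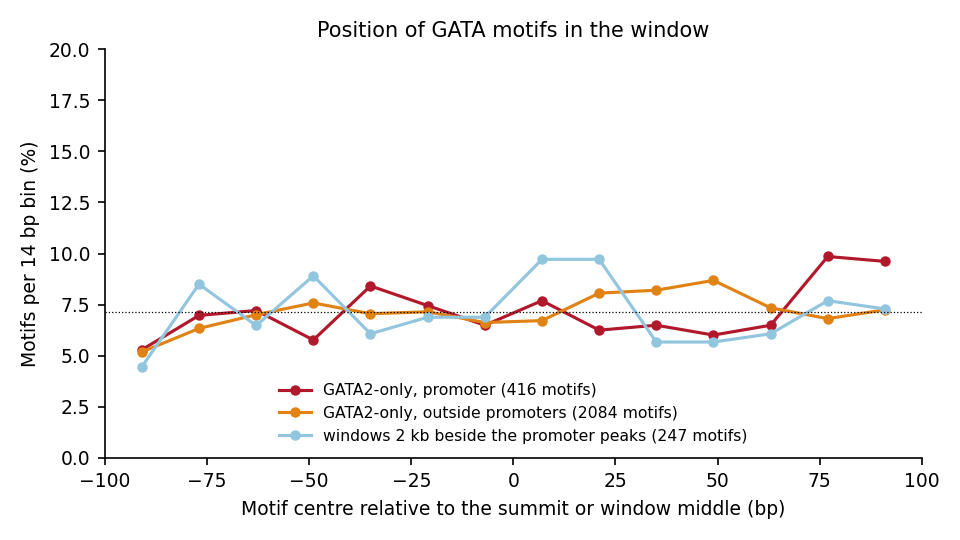
Positions of all GATA motifs in the 201 bp window as a percentage of motifs per 14 bp bin (vertical) against distance of the motif centre from the summit (horizontal, bp), for members (416 motifs), GATA2-only motif peaks outside promoters (2084) and windows 2 kb beside members (247). The dotted line is an even spread, and neither peak class has its highest bin next to the summit (24.3% and 25.3% of motifs lie within 25 bp).

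Among the nearest motifs AGATAA was the most frequent form with 123 members (34.3%), followed by AGATAG with 92 (25.6%), TGATAG with 80 (22.3%) and TGATAA with 64 (17.8%). TGATAG was more frequent than in motif peaks outside promoters, where it was 10.6% (difference 11.7 points, interval 7.33 to 16.5), and AGATAA was less frequent than the 43.6% found there (difference -9.37 points, interval -14.8 to -3.7). Against shared promoter peaks, AGATAA was more frequent in members (34.3% against 17.9%, difference 16.3 points, interval 5.3 to 24.9). Peaks over AGATAG had at least 20 reads in 18.5% of 92, beside 30.1% over AGATAA, 31.2% over TGATAA and 31.2% over TGATAG, with intervals that overlapped. The motif read on the strand of the gene in 178 of 359 members (49.6%, interval 44.4 to 54.7).

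Most members held 1 motif (312), while 37 held 2 and 10 held 3. More than 1 motif was found in 13.1% of members and in 37.8% of motif peaks outside promoters (difference -24.7 points, interval -28.7 to -20.1). Motifs up to 5 bp apart were found in 5 members, which are printed on the plus strand with both motifs in capitals because such doublets are the closest arrangement in these promoters.
Arhgef2, chr3:88606916-88606947, plus strand: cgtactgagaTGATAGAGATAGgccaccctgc
Adpgk, chr9:59291275-59291310, plus strand: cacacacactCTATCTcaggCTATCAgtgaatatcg
Ap5s1, chr2:131206046-131206077, plus strand: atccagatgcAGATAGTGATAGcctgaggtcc
Map3k10, chr7:27674703-27674735, plus strand: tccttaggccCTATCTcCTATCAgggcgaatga
Mars, chr10:127312279-127312312, plus strand: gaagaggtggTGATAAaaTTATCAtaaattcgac

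The Mars motifs face each other, with the nearer one 0.5 bp from a summit of 11 reads. At Arhgef2 and Ap5s1 the motifs abut and point the same way, under summits of 24 and 14 reads.

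An E-box 6 to 14 bp from WGATAR, the arrangement of a GATA-E-box composite element, was found in 24 members (6.69%, interval 4.53 to 9.75). Outside promoters it was found in 266 of 1405 motif peaks (18.9%), a difference of -12.2 points (interval -15.3 to -8.6), and in shared promoter peaks with the motif in 6 of 78 (7.69%). The 6 tallest are printed on the strand that reads WGATAR, with WGATAR and the E-box in capitals.
Cpa3, chr3:20244103-20244139, plus strand: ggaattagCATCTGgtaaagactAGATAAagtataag
Pgls, chr8:71591769-71591810, minus strand: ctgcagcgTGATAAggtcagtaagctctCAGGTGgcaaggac
Rassf4, chr6:116673904-116673937, minus strand: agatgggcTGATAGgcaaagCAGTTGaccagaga
Slc16a13, chr11:70220995-70221034, minus strand: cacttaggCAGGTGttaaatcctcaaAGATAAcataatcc
Tmem259, chr10:79984598-79984634, minus strand: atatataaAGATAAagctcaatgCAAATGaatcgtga
Stk40, chr4:126103831-126103864, minus strand: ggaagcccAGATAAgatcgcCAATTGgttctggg

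Cpa3, with 9 bp between its E-box and AGATAA, combined CAGATG (here read as CATCTG) with WGATAR in the element under its 46-read peak. The gap was 14 bp at Pgls, 6 bp at Rassf4, 12 bp at Slc16a13, 9 bp at Tmem259 and 6 bp at Stk40. At least 20 reads were found in 7 of the 24 members with such an E-box (29.2%, interval 14.9 to 49.2) and in 27.5% of the other 335 (23.0 to 32.5).

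Other motifs were searched on both strands of the same windows. The E-box CANNTG stood in 52.9% of members, 43.4% of GATA2-only promoter peaks lacking the motif (difference 9.56 points, interval 3.98 to 15.1), 69.2% of motif peaks outside promoters and 53.6% of the starts of all protein-coding genes. CAGATG, the E-box form preferred by TAL1 and a subset of CANNTG, stood in 12.3% of members, 5.81% of peaks lacking the motif (difference 6.45 points, interval 3.26 to 10.4) and 9.52% of all starts. TGTGGT, the core recognized by RUNX factors, stood in 15%, 7.19% (difference 7.85 points, interval 4.32 to 12) and 10%. E-box matches may share bases with WGATAR.

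The GC box GGGCGG, bound by SP factors, stood in 39.3% of members, 63.4% of peaks lacking the motif (difference -24.1 points, interval -29.4 to -18.6) and 40% of all starts. CCGGAA, an ETS core, stood in 14.2% against 19.2% (difference -5.02 points, interval -8.69 to -0.712), and the NRF1 motif in 4.46% against 8.28% (-3.82 points, interval -5.93 to -0.946). The AP-1 motif TGANTCA stood in 5.01% against 2.71% (2.3 points, interval 0.319 to 5.14). GAGGAA (18.1% against 17.8%) and CCAAT (31.2% against 30.2%) had differences of 0.352 points (interval -3.66 to 4.94) and 0.974 points (-4.02 to 6.3). TGACGTCA was found in 2 members.

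Splitting the windows at 60% GC altered part of this. Below 60% GC, CAGATG stood in 15.9% of members and 8.21% of peaks lacking the motif (difference 7.71 points, interval 2.8 to 13.4), and TGTGGT in 19.9% and 9.82% (10.1 points, interval 4.66 to 16.2). At 60% GC and above the differences were 1.08 points (interval -2.09 to 6.58) and 0.537 points (-2.89 to 6.24). For CANNTG the difference was 2.01 points below 60% GC (interval -5.69 to 9.59) and 9.71 points at 60% GC and above (0.992 to 18.4). GGGCGG stayed less frequent in members in both bands, by -11.0 points (interval -17.6 to -3.9) and -8.93 points (-17.6 to -0.991). For CCGGAA both intervals then included 0. So did both for TGANTCA, with 2.26 points below 60% GC (interval -1.14 to 6.63) and -0.443 points above (-1.81 to 3.41), and its intervals also included 0 both within 200 bp of the start and farther away. The NRF1 motif was less frequent in members below 60% GC (-4.21 points, interval -6.59 to -1.23) but not above (0.495 points, -3.77 to 6.87). Farther than 200 bp from the start, the differences were -7.76 points for CCGGAA (interval -12.6 to -1.35) and -3.49 points for NRF1 (-5.59 to -0.021). Within 200 bp they were -2.32 points (-7.31 to 3.65) and -2.82 points (-5.92 to 1.58). The differences for GAGGAA and CCAAT, whose intervals included 0 throughout, were -4.88 and -1.2 points at 60% GC and above. By position, TGTGGT was found in 31.0% of 42 members more than 1000 bp before the start and in 13.2% of 152 within 200 bp before it, and CAGATG in 31.0% and 8.55%.

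**Figure D5:**
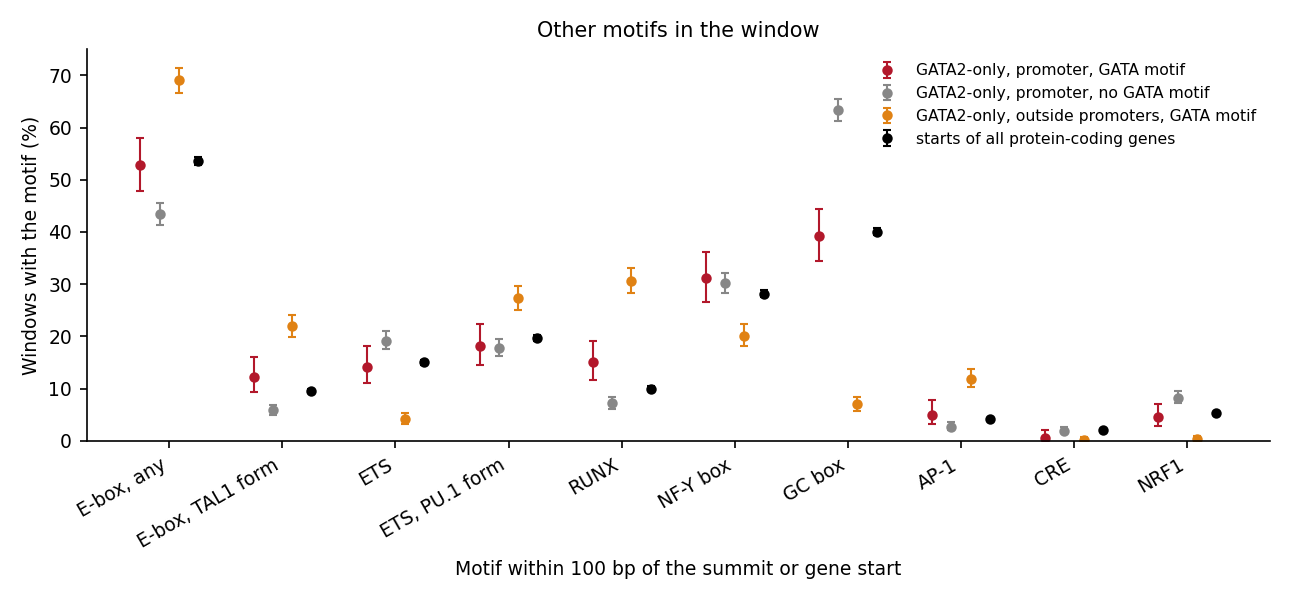
Share of windows with each of 10 motifs within 100 bp (vertical, %, with 95% Wilson intervals) in members, GATA2-only promoter peaks lacking the GATA motif, GATA2-only motif peaks outside promoters and the starts of all protein-coding genes. Members lie between the other promoter peaks and the peaks outside promoters for the E-boxes (12.3% for the TAL1 form), the RUNX core (15%) and the GC box (39.3%).

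The surroundings of members were examined for further peaks. A further GATA2 peak lay within 100 kb of the summit in 267 members (74.4%) and in 70.5% of promoter peaks lacking the motif (difference 3.88 points, interval -1.24 to 8.57), with a median of 2 further peaks against 1. A 9aa-Ins peak lay within 100 kb of 110 members (30.6%) and of 25.2% of peaks lacking the motif (difference 5.41 points, interval 0.49 to 10.7). Within 5 kb it was 20 members (5.57%) against 4.24% (difference 1.33 points, interval -0.821 to 4.32). The median distance from a member to the nearest 9aa-Ins summit was 311 kb. Cpa3 (7450 kb) and Ebf1 (4200 kb) were far from any 9aa-Ins peak, whereas Flt3l (12.5 kb), Prss34 (24.2 kb) and Igll1 (30.9 kb) had one nearby. Members were spread over the genome, with 42 of 359 on chromosome 7 (11.7%, beside 7.95% of promoter peaks lacking the motif, difference 3.75 points, interval 0.574 to 7.64), a chromosome picked out after the counts were seen.

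Several peaks fell close to the limits of the rule. Just inside 2 kb before the start were Gp9 (1971 bp, 21 reads), Sin3a (1969 bp, 25 reads) and Cpa3 (1966 bp, 46 reads), and just outside were Csk (2013 bp, 12 reads), Acbd3 (2017 bp, 18 reads) and Pex5l (2049 bp, 14 reads). After the start, Arv1 at 100 bp (19 reads), Spns3 at 99 bp (21 reads) and Art4 at 99 bp (14 reads) were inside, and Vamp8 at 105 bp (46 reads), Samsn1 at 106 bp (21 reads) and Ntng2 at 108 bp (19 reads) were outside. Vamp8 would have tied with Cpa3 in height. Motif centers at 97.5 bp placed Phf13, Zfp78 and Bag3 inside, with 9, 24 and 11 reads, while centers at 98.5 bp left out Arhgap25, Nr4a3 and Zcchc17, with 11, 14 and 13 reads. The smallest gaps to a 9aa-Ins peak were 77 bp at Lrrc8d (20 reads), 88 bp at Ptma (10 reads) and 223 bp at Stmn1 (10 reads), and overlaps of 6 bp at Mknk2 (32 reads), 94 bp at Fiz1 (20 reads) and 97 bp at Tmem97 (17 reads) were enough to leave those peaks out.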

How the data were processed

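The authors mapped CUT&Tag reads to the mm10 genome using Bowtie2, discarded duplicates and blacklisted regions, and used MACS3 to call peaks (versions not given in the sources used here). The 2 deposited lists, 1 per construct, merge both anti-HA replicates. In its methods the study describes peaks called in 2 replicates and then joined with HOMER. The labels say only that replicates were merged, so whether the deposited lists were made that way or from merged reads is not settled here. Each deposited peak carries a score (the authors' scaled −log10 q-value), a fold enrichment (a ratio, by the authors' caller), a −log10 p-value, a −log10 q-value and a summit position. Of the columns used, 0 belonged to other samples. Read totals per library are unknown here. Pileups were recovered from the ratios (100% whole, within 0.01 reads). The PCR reads carry no molecular identifiers.

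Promoters came from all protein-coding transcripts of GENCODE M21, and motifs and GC content from the GRCm38 sequence in 201 bp windows. A peak was named by the protein-coding gene with the nearest start in reach, whereas list counts took every gene with a start in reach. Named are the 20 members of highest fold enrichment, members of the gene lists (292 of 293 symbols matched), up to 6 of the tallest members with close motifs or an E-box, peaks next to the limits and genes with more than 1 member, besides those stated to be chosen later. One gene that the lists hold is not reported here. Members and lists were chosen with earlier results of these data known. Shares have Wilson and differences Newcombe 95% intervals, and no p-value was computed. Scripts used Python 3.11.15, numpy 2.4.6, pandas 2.3.3 and matplotlib 3.10.9, and were tested on simulated data. Alternatives changed overlap, peak threshold, promoter window, starts, motif window, motif form and repeats, and those on the GENCODE basic set, GC content and position were chosen after seeing the data.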

Additional observations from a re-analysis of the deposited data

How the results depend on the processing

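For 8 results, 96 values were recomputed over 15 settings, not every setting applying to every result. None of these 96 changed sign, 3 differences came to include 0, 3 came to exclude it, and 8 counts or shares moved by more than 1.5 times or beyond their interval. Other motif differences by GC content are given with the motifs, and some of them changed sign. With the motif sought within 50 bp there were 186 members (7.56% of GATA2-only promoter peaks), 52.2% of them with the motif within 25 bp, and the E-box difference was 4.13 points (interval -2.13 to 11.2). Within 200 bp there were 617 members (25.1%), 15.7% with the motif within 25 bp. With AGATAA and TGATAA only there were 189 (7.68%). The numbers of members follow from the width of the window or the letters allowed. A share within 25 bp also depends on that width, since a narrower window leaves fewer places farther from the summit. The E-box difference was 2.01 points below 60% GC and 5.15 points farther than 200 bp from the start, with intervals that included 0. The excess of members with a further GATA2 peak within 100 kb excluded 0 with a reciprocal overlap of 50% (4.93 points), at a q-value of 1e-10 (6.6 points) and with the motif within 200 bp (4.88 points). In the other settings its interval included 0. The smallest values were 1.23 points with gene starts (interval -4.87 to 6.79) and 2.5 points with promoters from 1 kb before the start (-3.02 to 7.54). With promoters from 1 kb before the start, the difference in summits within 200 bp of a start was -8.23 points in place of -13.4. The cause was not tested. No paired analysis was possible because the replicates had been merged by the authors, and for the same reason no replicate was left out. At 9 to 11 reads a summit rests on few fragments, and a missing 9aa-Ins peak is a missing call, not a measured absence of binding.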
